A study of Mus musculus with 4 samples.

Results

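Actin filaments, the myosins that pull on them and the adhesion proteins that anchor them were followed here as a set of 35 genes, in cultured fibro-adipogenic progenitors (FAPs). FAPs are the Sca1-positive mesenchymal cells of skeletal muscle from which scar-forming fibroblasts and fat cells arise. The members were a fixed list of gene names, and each matched 1 of the 28649 gene rows of the deposited table.

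FAPs of mice labelled miR-206 KO were set against FAPs of wild-type C57Bl/6 mice, with 2 RNA-seq libraries of each genotype. All 4 libraries were of Sca1+ cells sorted from skeletal muscle, expanded in serum-rich medium with FGF, and moved for the last 48 hours before harvest to DMEM that held horse serum alone. The labels give neither the strain background of the KO mice nor the age, sex or number of animals, so a strain difference and loss of miR-206 cannot be told apart. Nothing says that replicates came from separate mice or cultures, so each p-value reflects the spread among these libraries alone, which was larger than counting noise and may still be technical in part. Depth was 35521839 and 30550235 estimated counts for KO replicates 1 and 2, and 34827986 and 44561117 for wild-type replicates 1 and 2. Mir206 was not analysed here, and the genotype labels were therefore not checked against it.

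A fibroblast that becomes a myofibroblast builds actin bundles that hold smooth muscle actin, coats them with tropomyosin, transgelin and calponin, and contracts them with myosin. Contraction is switched on when myosin light chain kinase phosphorylates the regulatory light chain. Many of the genes are transcribed by serum response factor (SRF) with its actin-sensing partners, the MRTF proteins. In muscle, FAPs that take this path lay down scar matrix. miR-206 is a microRNA of the muscle lineage that shares its seed with miR-1.

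The 35 genes were expressed over a very wide range. In TPM, a level scaled to transcript length and sequencing depth, which lets genes be compared, Actb, which encodes a cytoplasmic actin, was the highest, at 1523 and 1992 TPM in KO cells and 1541 and 1706 TPM in wild-type cells. Myl6, the essential light chain of non-muscle and smooth muscle myosin, followed with a 4-library mean of 1397 TPM, then the cytoplasmic actin gene Actg1 with 1181 TPM and Tpm1 with 995 TPM. This order held within each of the 4 libraries, although the ranges over libraries overlapped between neighbours. Together the members held 1.07% and 1.28% of the deposited TPM in KO cells and 1.08% and 1.13% in wild-type cells.

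Acta2, the smooth muscle actin that marks myofibroblasts, was well expressed in every library, with 316 and 397 TPM in KO cells and 270 and 270 TPM in wild-type cells. Tagln, the actin-bundling transgelin of smooth muscle and myofibroblasts, had 117 and 150 TPM in KO and 75.4 and 85.0 TPM in wild type. Some genes that mark differentiated smooth muscle were close to silent, but not all genes of smooth muscle were. Smtn, or smoothelin, averaged 63.0 TPM and the light chain gene Myl9 75.9 TPM. Myh11, the smooth muscle myosin heavy chain, averaged 0.364 TPM over the 4 libraries, against 225 TPM for Myh9 and 24.7 TPM for Myh10, the heavy chains of non-muscle myosin. Cnn1, the calponin of smooth muscle, averaged 1.14 TPM, Lmod1, a leiomodin that nucleates filaments in smooth muscle, 1.17 TPM, and Actg2, the enteric smooth muscle actin, 2.89 TPM. Myocd, the smooth muscle co-activator of SRF, had 1 estimated count in wild-type replicate 1 and none in the other libraries. Cells of both genotypes thus carried the myofibroblast genes Acta2 and Tagln and little RNA of Myh11, Cnn1, Lmod1, Actg2 and Myocd.

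**Figure D1:**
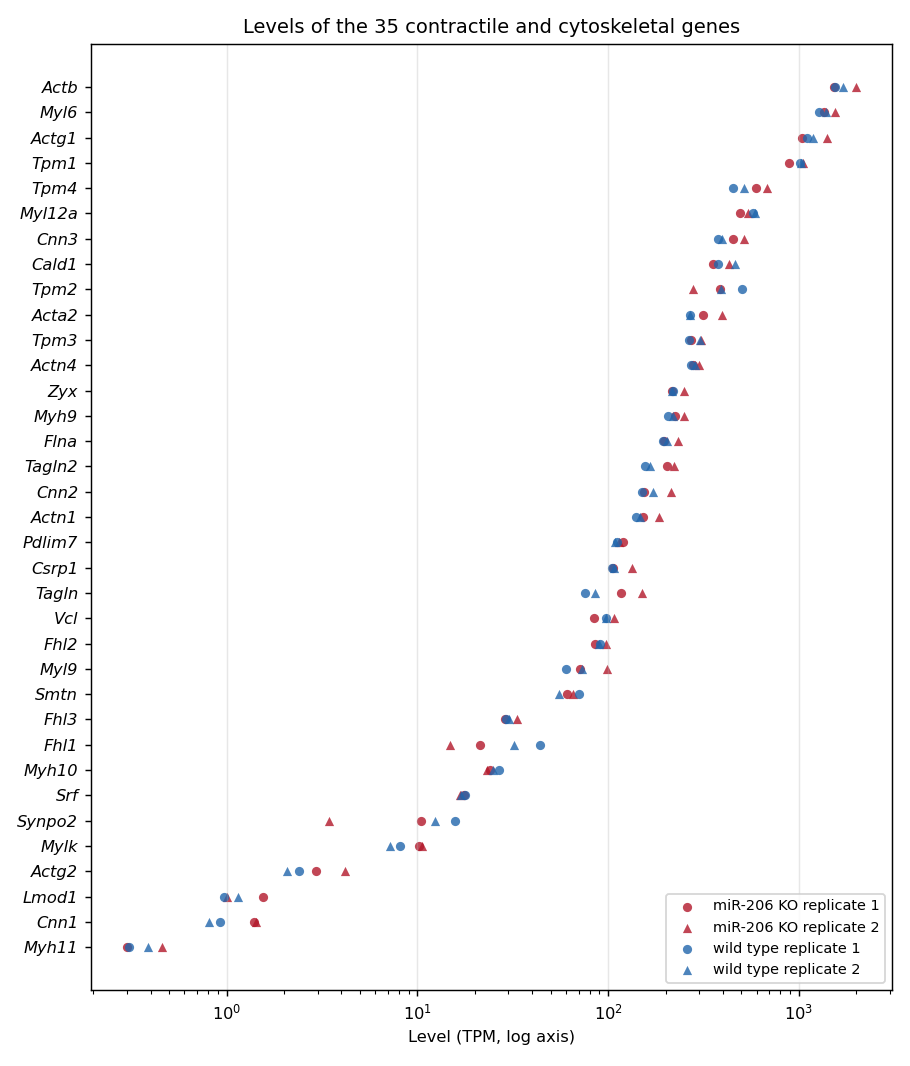
Level of each of the 35 genes in TPM on a log axis, with genes ordered by their 4-library mean; red marks are miR-206 KO libraries and blue marks wild-type libraries, circles replicate 1 and triangles replicate 2. Actb, Myl6 and Actg1 lie at the top, with means of 1691, 1397 and 1181 TPM, and Myh11 lies below 1 TPM in all 4 libraries.

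The comparison between genotypes asked how miR-206 KO FAPs differ from wild type. All 35 members passed the filter on low counts, and 0 of them passed edgeR's quasi-likelihood test at a Benjamini-Hochberg adjusted p of 0.05, where 0.427% of the 14507 tested genes did (62 genes). Before adjustment 7 members had an edgeR p under 0.05, which is 20% of them, against 14.3% of all tested genes. Of these 7, 6 were higher in KO, where 7.16% of all genes were, and 1 was lower, where 7.18% were. DESeq2 called the same 7 genes, Tagln, Mylk, Tagln2, Tpm4, Acta2, Cnn3 and Fhl1, at an adjusted 0.05, where it called 4.62% of the genes to which it gave an adjusted p. Without the filter on low counts edgeR called 5 of them, Tagln, Mylk, Tagln2, Tpm4 and Acta2 (2.46% of genes in that fit). With the replicate number as a block it called 3 members, Tagln higher and Fhl1 and Tpm2 lower (1.83% of genes), and limma-voom called 0.

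The median log2 fold change of the members was 0.12, KO over wild type, against -0.002 for all tested genes, and 27 of 35 were positive. Both KO libraries lay above both wild-type libraries in 12 members, or below them in 4, where all tested genes gave 23.8% above and 24.4% below. The shift was uneven between the KO libraries. KO replicate 2 held the highest value of the 4 libraries for 24 of 35 members (68.6%), against 26.5% of all tested genes. Relative to the wild-type mean, the members' median was 0.01 log2 in KO replicate 1 and 0.19 in KO replicate 2, and without KO replicate 2 the fitted median was 0.02. The same library stood apart in its muscle-lineage genes, which summed to 276 CPM there and to at least 2482 CPM in the other libraries. The part of that difference between libraries in the members' shift was not tested.

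**Figure D2:**
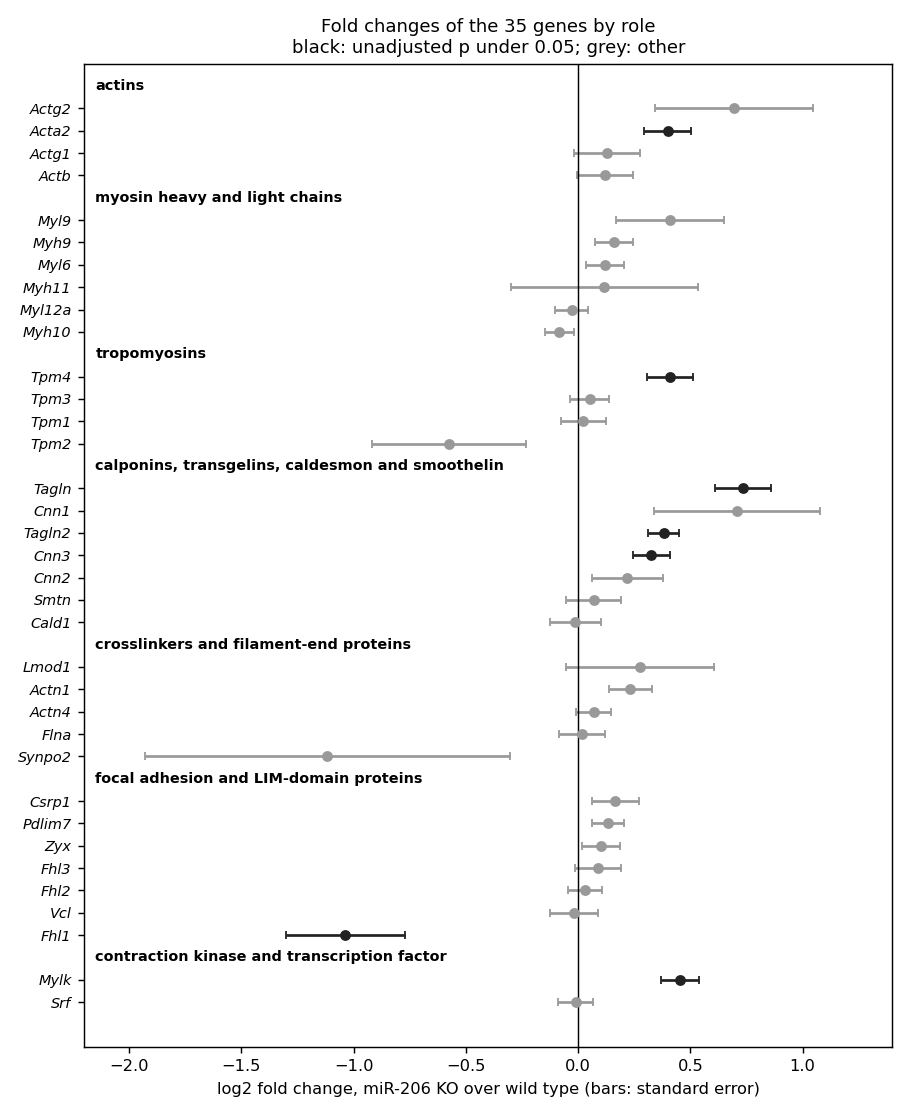
Log2 fold change of each member, miR-206 KO over wild type, from edgeR, grouped by role, with bars showing the standard error; black marks the 7 members with an unadjusted p under 0.05 and grey the rest. Tagln stands highest at 0.73, and Synpo2, Fhl1 and Tpm2 are the members well below 0.

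Among the proteins that coat the actin filament, Tagln had the largest positive log2 fold change of the 35 genes. It had 107 and 133 CPM (counts scaled to TMM library size) in KO libraries and 68.1 and 76.1 CPM in wild-type libraries. The genotypes did not overlap, with means of 120.0 ± 18.4 CPM in KO and 72.1 ± 5.68 CPM in wild type (SD, n = 2 each). The log2 fold change was 0.73 (SE 0.12), a ratio of 1.66, with an edgeR adjusted p of 0.0809. The gene lies at chr9:45929619-45936058 on GRCm38. Leaving out 1 library at a time gave log2 fold changes between 0.57 and 0.88, with edgeR adjusted p from 0.115 to 0.29.

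Tagln2, the transgelin of non-muscle cells, had 154 and 150 CPM in KO and 113 and 121 CPM in wild type. Its log2 fold change was 0.38 (SE 0.07, edgeR adjusted p = 0.0837), a ratio of 1.30. Cnn3, the acidic calponin of non-muscle cells and the most abundant gene of this group in TPM, had 536 and 587 CPM in KO and 440 and 455 CPM in wild type, a log2 fold change of 0.33 (SE 0.08, edgeR adjusted p = 0.156). In both genes the KO libraries lay above the wild type without overlap, and SDs were at most 35.7 CPM in KO and 10.7 CPM in wild type. Cnn2, another non-muscle calponin, overlapped, with 195 and 265 CPM in KO and 189 and 205.7 CPM in wild type, and its log2 fold change of 0.22 was -0.015 without KO replicate 2. Cald1, or caldesmon, and Smtn, or smoothelin, had log2 fold changes of -0.01 and 0.07 with overlapping genotypes. Cnn1 had 68 and 60 counts in KO and 46 and 50 counts in wild type, a log2 fold change of 0.71 (SE 0.37, edgeR adjusted p = 0.458).

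All 4 actins had positive log2 fold changes. In 2 of them, Acta2 and Actg2, both KO libraries lay above both wild-type libraries. Of all tested genes, 23.8% lay above in this way and 24.4% below. Acta2, at chr19:34241090-34255590, had 328 and 399 CPM in KO libraries, against 277 and 275 CPM in wild-type libraries. The wild-type libraries were nearly level and KO replicate 2 was the highest, with means of 364 ± 50.3 CPM in KO and 276 ± 1.65 CPM in wild type (SD, n = 2 each). The log2 fold change was 0.40 (SE 0.10), a ratio of 1.32, with an edgeR adjusted p of 0.171, and it was 0.25 without KO replicate 2. Actg2 had the largest positive log2 fold change among the actins, 0.69 (SE 0.35, edgeR adjusted p = 0.441), but it rested on 71 and 84 counts in KO and 53 and 66 counts in wild type. Actb had 1435 and 1776 CPM in KO and 1404 and 1552 CPM in wild type, and Actg1 had 1072 and 1430 CPM in KO and 1110 and 1179 CPM in wild type. Both cytoplasmic actins overlapped between genotypes, with log2 fold changes of 0.12 and 0.13 that turned to -0.04 and -0.09 without KO replicate 2.

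**Figure D3:**
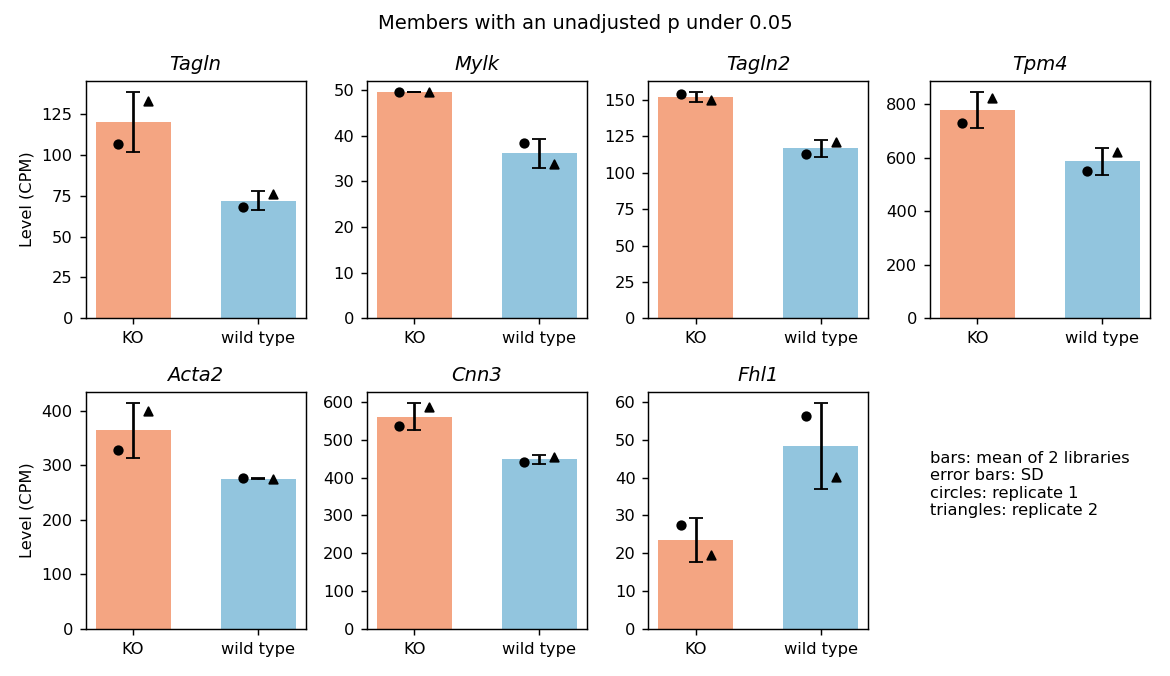
CPM in miR-206 KO and wild-type libraries of the 7 members with an unadjusted edgeR p under 0.05; bars are the mean of 2 libraries, error bars the SD, circles replicate 1 and triangles replicate 2. Both KO libraries lie above both wild-type libraries for Tagln, Mylk, Tagln2, Tpm4, Acta2 and Cnn3, and below them for Fhl1.

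Of the tropomyosins, Tpm4, the tropomyosin of non-muscle stress fibres, was the 1 member of the family with an unadjusted p under 0.05. It had 732 and 826 CPM in KO and 550 and 624 CPM in wild type, with a log2 fold change of 0.41 (SE 0.10, edgeR adjusted p = 0.156) and a ratio of 1.33. The KO libraries averaged 779 ± 66.2 CPM and the wild type 587 ± 51.8 CPM (SD, n = 2 each). Tpm1, the most abundant of them, had 752 and 889 CPM in KO and 815 and 798 CPM in wild type, a log2 fold change of 0.02 (SE 0.10) whose sign turned under scaling to library size alone (-0.013). Tpm3 stood at 0.05. Tpm2, whose protein is made in striated muscle as well as in fibroblasts, went the other way, with 313 and 190 CPM in KO and 434 and 317 CPM in wild type. Its genotypes did not overlap, but KO replicate 1 and wild-type replicate 2 were nearly level, and the log2 fold change was -0.58 (SE 0.34, edgeR adjusted p = 0.567).

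Mylk, at chr16:34745210-35002420, encodes the kinase that phosphorylates the regulatory light chain of myosin, and had 49.4 and 49.5 CPM in KO cells and 38.4 and 33.8 CPM in wild-type cells. The KO libraries were level with each other and above both wild-type libraries. Its log2 fold change was 0.45 (SE 0.09), a ratio of 1.37, with an edgeR adjusted p of 0.0884, and it lay between 0.37 and 0.55 with each library left out. None of the 6 myosin genes had an unadjusted p under 0.05. Myl9, the regulatory light chain of smooth muscle and stress fibres, had 38.8 and 55.1 CPM in KO and 30.5 and 40.1 CPM in wild type, which overlapped (log2 fold change 0.41, SE 0.24, edgeR adjusted p = 0.541). Myl6 had 448 and 486 CPM in KO and 411 and 449 CPM in wild type, also overlapping. Log2 fold changes were 0.16 (SE 0.09) for Myh9, whose KO libraries lay above the wild type, -0.03 for Myl12a, another regulatory light chain, and -0.08 (SE 0.07) for Myh10. Myh11 had 43 to 56 counts in KO and 45 to 70 counts in wild type.

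Srf itself was nearly equal, with 43.9 and 41.0 CPM in KO and 44.1 and 41.6 CPM in wild type (log2 fold change -0.01, SE 0.08). The genes of the adhesions and crosslinks to which filaments attach mostly had log2 fold changes near 0. Actn4, a non-muscle alpha-actinin, had 482 and 515 CPM in KO and 467 and 483 CPM in wild type, and Zyx, the focal adhesion protein zyxin, had 315 and 357 CPM in KO and 316 and 310 CPM in wild type. Actn1, the other non-muscle alpha-actinin, had the largest positive value of the crosslinkers in genes of ample counts, 0.23 (SE 0.10, edgeR adjusted p = 0.352), and its KO libraries lay above the wild type. Lmod1, at 2.36 to 3.73 CPM in KO and 2.33 to 2.71 CPM in wild type, overlapped. Flna, or filamin A, Vcl, or vinculin, and the LIM-domain genes Pdlim7, Csrp1, Fhl2 and Fhl3 had log2 fold changes between -0.02 and 0.17. Of these, Pdlim7 and Csrp1 had KO libraries above both wild-type libraries.

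Besides Tpm2 and Myh10, the members with both KO libraries below the wild type were Fhl1, a LIM-domain protein abundant in skeletal muscle, and Synpo2, or myopodin, an actin-bundling protein of the muscle Z-disc. Fhl1, at chrX:56731787-56793346, had 27.6 and 19.4 CPM in KO libraries, against 56.3 and 40.2 CPM in wild-type libraries, with means of 23.5 ± 5.76 CPM in KO and 48.3 ± 11.4 CPM in wild type (SD, n = 2 each). Its log2 fold change was -1.04 (SE 0.26, edgeR adjusted p = 0.245). Synpo2 had 28.3 and 8.18 CPM in KO and 46.8 and 32.7 CPM in wild type, a log2 fold change of -1.12 (SE 0.81, edgeR adjusted p = 0.65). In Fhl1, Synpo2 and Tpm2 alike, KO replicate 2 was the lowest library, KO replicate 1 the next, and wild-type replicate 1 the highest.

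The muscle-lineage markers had that same order of libraries. Their 21 genes in the table summed to 2482 and 276 CPM in KO replicates 1 and 2, and to 4712 and 2730 CPM in wild-type replicates 1 and 2. Of 19 tested, 0 were called by edgeR, 0 had an unadjusted p under 0.05 and all 19 were negative, with a median of -1.44 log2. In 15 of the 19 both KO libraries lay below the wild type, against 24.4% of all tested genes. Pax7 and Myf5, the markers of resting satellite cells, were at 0.55 CPM or less in every library, with Myf5 at 0 in both KO libraries and Pax7 at 0 in KO replicate 2. Without KO replicate 2 the log2 fold changes were -0.80 for Fhl1, -0.48 for Synpo2 and -0.26 for Tpm2. The part of the muscle-lineage RNA in these 3 genes was not tested, and in bulk RNA fewer cells of a type and less RNA per cell cannot be told apart.

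**Figure D4:**
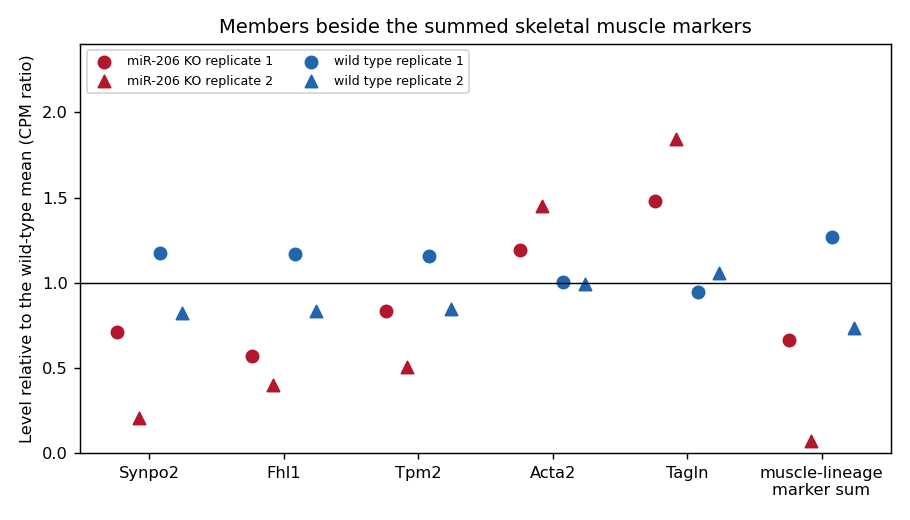
CPM of 5 members and of the summed skeletal muscle markers in each library, as a ratio to the wild-type mean; red marks are miR-206 KO and blue wild-type libraries, circles replicate 1 and triangles replicate 2. Synpo2, Fhl1 and Tpm2 have the same order of libraries as the muscle markers, which summed to 276 CPM in KO replicate 2 and to 4712 CPM in wild-type replicate 1, while Acta2 and Tagln are highest in KO replicate 2.

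Markers of cells that also use these genes were looked at beside them. Pericyte and smooth muscle markers, 13 genes of which Cnn1 and Myh11 are also members, summed to 1141 and 1135 CPM in KO and 1318 and 1329 CPM in wild type, mostly from Pdgfrb. Of the 11 tested, edgeR called 0, 6 were positive and 5 negative, and the median was 0.12 log2. Both KO libraries lay above the wild type in 2, Ndufa4l2 and Cnn1, and below it in 3, Des, Cspg4 and Notch3, with log2 fold changes of -1.69, -0.74 and -0.31. Of these, Cspg4 and Notch3 had an unadjusted p under 0.05, and Des is also a muscle-lineage marker. Over all tested genes, 23.8% had both KO libraries above the wild type and 24.4% below it. Of all tested genes 14.3% had an unadjusted edgeR p under 0.05, and 0.427% were called. Higd1b was at 0 in all libraries, and Rgs5 had 5.38 and 12.01 CPM in KO and 3.65 and 6.51 CPM in wild type. The 12 FAP markers summed to 34595 and 32411 CPM in KO and 27196 and 32331 CPM in wild type. Among them Pdgfra was at 1959 and 1902 CPM in KO and 1455 and 1520 CPM in wild type. Col1a1 and Col3a1, also among the 12, are counted again below with the matrix and activation genes, and Gsn with the actin turnover genes. Endothelial, haematopoietic, glial and epithelial markers were low, with sums of at most 31.7, 18.8, 9.78 and 0.695 CPM in KO and 42.8, 14.2, 8.48 and 2.13 CPM in wild type. Adipocyte markers summed to 1474 and 1023 CPM in KO and 2544 and 2037 CPM in wild type. All 7 tested had both KO libraries below the wild type, against 24.4% of all tested genes, with a median of -2.38 log2. An unadjusted p under 0.05 was found for 4 of the 7, against 14.3% of all tested genes. Of them 1 was called, the lipid-droplet gene Cidec (log2 fold change -3.93, edgeR adjusted p = 0.0468). The 12 FAP markers were mixed, with 8 positive, 4 negative and a median of 0.32 log2. Both KO libraries lay above the wild type in 6 of them and below it in 3. An unadjusted edgeR p under 0.05 was found for 7, of which 4 were higher and 3 lower. Of the FAP markers 1 was called, Clec3b, also lower (log2 fold change -1.36, edgeR adjusted p = 0.00269).

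Since miR-206 is the gene named as knocked out, the 3' untranslated regions (3' UTRs) of the members were searched for matches to its seed, bases 2 to 8 of the mature microRNA. The site was taken as ACATTCC or CATTCCA, or as ACATTCCA, which holds both and was counted once. ACATTCC pairs with all of bases 2 to 8, while CATTCCA does not reach base 8 and ends in an A opposite the first base. Tagln, Actb and Zyx held CATTCCA alone. Sites were read on the transcript strand of the longest 3' UTR of a protein-coding GENCODE transcript. The mature sequence, from RefSeq on GRCm38 at chr1:20679055-20679076 on the plus strand, is shown with its seed in capitals, and below it are the matches in 5 of the 6 members that were higher in KO with an unadjusted p under 0.05, and that of Tpm2, which was lower, with the matching bases in capitals. Acta2, the other higher member, held no match.
miR-206-3p: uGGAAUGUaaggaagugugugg
Tagln: actcctgttagCATTCCAggaaccctgagg
Tagln2: tgttttagcagACATTCCctgagagcccct
Cnn3: atgccttatgtACATTCCtttctccttttc
Mylk: gtgtgtgtctaACATTCCAaatactttttt
Tpm4: ctcacactgaaACATTCCAcattccccagc
Tpm2: agtgtctcctaACATTCCtaacatggtttt

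These windows lie, on GRCm38, at chr9:45929892-45929921 on the minus strand for Tagln, chr1:172506766-172506795 on the plus strand for Tagln2, and chr3:121457547-121457576 on the plus strand for Cnn3. Those of Mylk and Tpm4 are at chr16:35001891-35001920 and chr8:72152880-72152909 on the plus strand, and that of Tpm2 at chr4:43514944-43514973 on the minus strand. Tpm4 held 3 matches, of which the one in capitals overlaps another. That other match, ACATTCC, starts at the last capital base and runs on in lower case, unmarked. Of all 35 members, 11 held a match, or 31.4%, against 16.9% of 21020 genes with an annotated 3' UTR. The median 3' UTR was longer in the members, at 1112 bases, than in those 21020 genes, at 961 bases. The part of 3' UTR length in the members' higher share was not tested. The members with a match had a median log2 fold change of 0.22, and 5 of 11 were higher in KO with an unadjusted p under 0.05. The 24 without one had a median of 0.10, and 1 of 24 was higher by that measure. Over all tested genes the medians were -0.001 with a match and -0.002 without, and 8.69% and 7% were higher with an unadjusted p under 0.05. The remaining members with a match, Cnn2, Tpm3, Actb, Zyx and Myl12a, had log2 fold changes between -0.03 and 0.22. A match is a description of the sequence and not a site shown to be used, and annotated isoforms differ: 1 of 2 coding transcripts of Tagln2, 2 of 4 of Cnn3 and 1 of 2 of Mylk carried it.

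**Figure D5:**
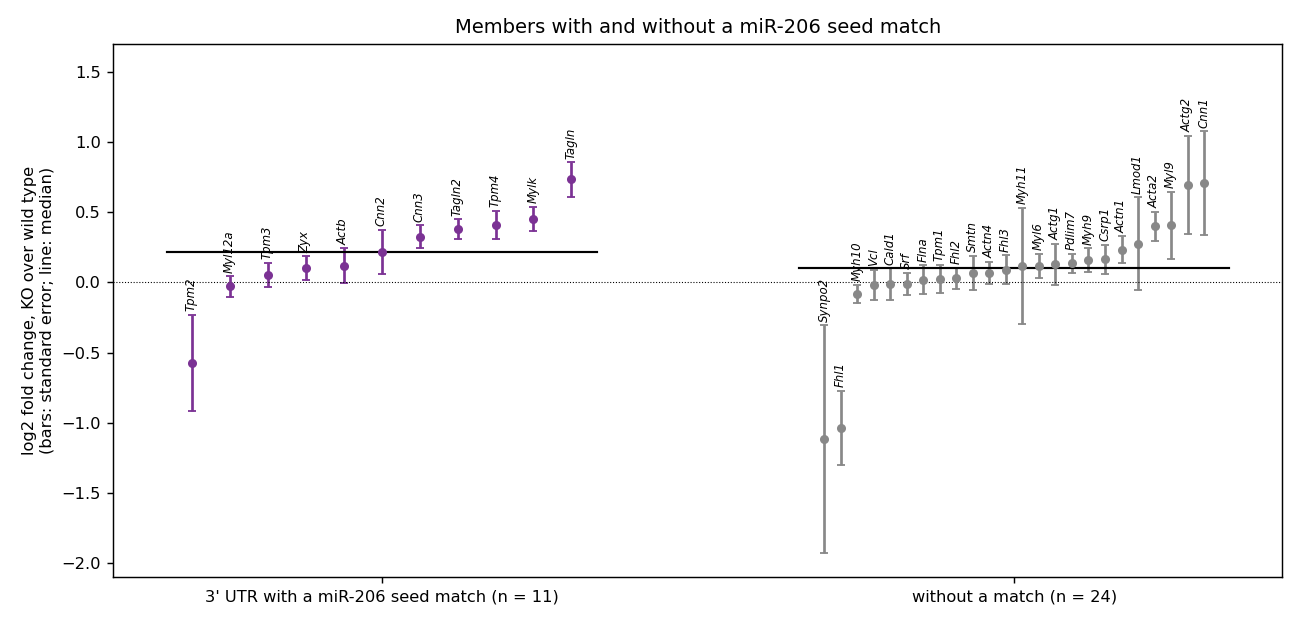
Log2 fold change, miR-206 KO over wild type, with its standard error, for the 11 members whose longest 3' UTR holds a miR-206 seed match (left, purple) and the 24 without one (right, grey); the horizontal lines are the group medians, 0.22 and 0.10. Tagln, Mylk, Tpm4, Tagln2 and Cnn3 lie at the upper end of the left group and Tpm2 below 0.

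The promoters were searched for the CArG box, the element that SRF binds, which has an A- and T-rich core between a CC and a GG pair and reads as the same consensus on both strands. RefSeq promoter windows on GRCm38, from 250 bases before to 50 bases after a gene's start, were matched for 31 members, and Tagln, Actb, Myh11 and Actg2 were not matched. A CArG box stood in a window of 8 of 31 members (25.8%), against 1.81% of 27025 genes. The 8 were Actg1, Cnn2, Fhl1, Fhl2, Myl6, Myl9, Srf and Vcl, with a median log2 fold change of 0.075, and Fhl1 was the 1 of them with an unadjusted p under 0.05. A gene was counted if any of its windows held a box, and Fhl1 and Myl6 each also had a window, at another start, without one. Windows of 50 bases are shown for Srf, which has a pair of boxes in its own promoter, for the cytoplasmic actin Actg1 and for Fhl1, with the boxes in capitals.
Srf: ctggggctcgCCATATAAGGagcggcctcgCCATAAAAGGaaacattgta
Actg1: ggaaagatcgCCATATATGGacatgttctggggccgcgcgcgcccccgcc
Fhl1: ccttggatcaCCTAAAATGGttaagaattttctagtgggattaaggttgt

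They lie at chr17:46556205-46556254 and chr11:120348546-120348595 on the minus strand and at chrX:56779571-56779620 on the plus strand. Srf and Actg1 had log2 fold changes of -0.01 and 0.13, and Fhl1 had -1.04, so members with a box lay on both sides of 0. No match in Acta2, Mylk, Tpm4, Tagln2 or Cnn3 says only that the strict consensus was not in these windows.

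The genes around the contractile set were counted in lists of their own. The MRTF genes, listed as Mkl1 and Mkl2, had log2 fold changes of 0.05 and -0.04. Of 27 actin turnover genes 0 were called by edgeR, 3 (11.1%, against 14.3% of all tested genes) had an unadjusted p under 0.05, the median was -0.01 log2, and the most abundant were Gsn, or gelsolin, which severs filaments, with 2299 and 2099 CPM in KO and 2948 and 2792 CPM in wild type (log2 fold change -0.38, edgeR adjusted p = 0.155), and the cofilin gene Cfl1, with 0.04. Of 39 other actin-binding and adhesion genes, 0 were called by edgeR and 9 (23.1%, against the same 14.3%) had an unadjusted p under 0.05, 6 higher and 3 lower, with a median of -0.02 log2. Their most abundant members, the integrin gene Itgb1 and the cadherin gene Cdh11, had log2 fold changes of 0.02 and 0.14.

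Matrix and activation genes of the myofibroblast held the 1 called gene among these lists. Cthrc1, a secreted protein of injury fibroblasts, rose, with 51.8 and 58.7 CPM in KO and 31.02 and 33.97 CPM in wild type, a log2 fold change of 0.77 (SE 0.09, edgeR adjusted p = 0.0424). It was the 1 gene called among the 18 tested, the call was lost with each library left out (edgeR adjusted p from 0.0769 to 0.157), and 7 of 18 (38.9%) had an unadjusted p under 0.05, each higher in KO, where 7.16% of all tested genes were. In 13 of 18 both KO libraries lay above the wild type and in 0 below, where all tested genes gave 23.8% and 24.4%, and the median was 0.21 log2 against -0.002 for all tested genes. Lox and Ctgf, genes that TGF-beta induces in fibroblasts, had log2 fold changes of 0.70 and 0.78 with edgeR adjusted p of 0.0705 and 0.11.

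Some members have near-copies in the genome, and counts that such copies can exchange are uncertain. Of the members' 31-base words, at least 10% were also found in transcripts of other genes for 8 members. The highest shares were 40.2% for Actg1, 27% for Tpm3, 23.5% for Actb, 17.7% for Myl12a, which shares most with Myl12b, and 17.6% for Cnn3. Tpm4 had 16%, most of it with Gm7809. That gene's 8.50 and 2.70 counts in KO and 2.70 and 5.70 counts in wild type were small beside those of Tpm4. Other partners had more counts: 5127 to 7306 over the libraries for Myl12b, and 3722 to 5751 for Lrrc58, which shares most with Actb. Gm12715, which shares most with Actg1, had 32.7 to 165.1. Gm4815 and Tpm3-rs7, which share most with Cnn3 and Tpm3, had no row in the deposited table. Tagln shared none of its words, and Tagln2, Acta2, Mylk, Fhl1, Synpo2 and Tpm2 shared less than 2%.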

How the data were processed

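RNA of cultured FAPs was sequenced from 2 miR-206 KO and 2 wild-type stranded mRNA libraries, per the labels' protocols. FastQC, kallisto and mm10 are named in the submitters' processing notes. Their versions, the annotation release, the strand setting and how transcripts were combined into genes are not stated there. kallisto divides reads among similar transcripts by likelihood. The authors deposited estimated counts, not normalized (30.5% to 34.9% of a library's values lay over 0.001 from a whole number), and TPM values, which as deposited sum to between 907609 and 922339 per library. TPM is scaled to length and depth, so it served for levels across genes.

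Estimated counts were rounded and tested on the whole table with edgeR 4.0.16 in R 4.3.3: filterByExpr, TMM, robust quasi-likelihood F-test, two-sided, Benjamini-Hochberg over 14507 genes, threshold 0.05. The SE is the log2 fold change over the square root of F. CPM use TMM-scaled library sizes. DESeq2 1.42.0, limma 3.58.1, other scalings and filters, a replicate block and each library left out were alternatives. Counts of the 2 KO libraries differed by a chi-square of 36.1 per gene and those of the wild-type pair by 27, where sampling alone gives about 1.

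Members and lists were chosen with earlier results of these data known, and the sequence searches were added after the fold changes had been seen. Members given with values in each library are those with an unadjusted p under 0.05 and, in each role group, the one of highest TPM and the one of largest absolute fold change; the rest are given by fold change or range, and values added for Cnn1, Cnn2, Actg1, Actn1, Lmod1 and Myh11 were chosen after they were seen. In neighbour lists they are called genes or else the 2 of highest CPM; Mkl1, Mkl2, Lox, Ctgf and genes named among the markers were chosen after their values were seen. Some items of the neighbour lists are not reported here. Coordinates are GENCODE M21 or RefSeq on GRCm38, the assembly of mm10.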

Additional observations from a re-analysis of the deposited data

How the results depend on the processing

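The number of members called was 0 in the fit reported, 5 with no low-count filter, 7 with DESeq2 and 0 with DESeq2 size factors in edgeR, library size alone, limma-voom, edgeR without robust estimation and limma on TPM. It was 0 in each fit without 1 library. The labels share replicate numbers 1 and 2 across genotypes, but nothing says that they pair samples, and same-numbered deviations correlated at 0.187 over genes. With the replicate number as a block, edgeR called 3 members, Fhl1, Tpm2 and Tagln, 265 genes in all and 7 genes of the neighbour lists. All genes called numbered 62 in the fit reported, 133 with library size alone, 491 without filter, 660 with DESeq2, 14 with limma-voom, 11 without robust estimation, 6 with limma on log2(TPM + 1), 4 with a pseudocount of 0.1, 4 without the TPM filter and 7 to 77 with a library left out. Neighbour-list genes called numbered 1, against 2, 7, 11, 0 and 0 with library size alone, no filter, DESeq2, limma-voom and no robust estimation, 0 in the 3 fits on TPM and 0 to 1 with a library left out. Members with an unadjusted p under 0.05 numbered 7 to 14 with a library left out, the highest without KO replicate 1. The members' median ran from 0.017, without KO replicate 2, to 0.19, without KO replicate 1. The causes were not tested, beyond fewer libraries in a fit. Signs of near-level members turned: under library size alone Tpm1, Fhl2 and Flna had -0.013, -0.007 and -0.018, and on TPM Tpm1 had -0.08 in each of the 3 fits. With a library left out the log2 fold changes ran from -0.015 to 0.42 for Cnn2, -0.061 to 0.005 for Myl12a, -0.10 to 0.14 for Tpm1, -0.013 to 0.12 for Tpm3, -0.092 to 0.32 for Actg1, -0.04 to 0.27 for Actb, -0.10 to 0.57 for Lmod1, -0.18 to 0.37 for Myh11, -0.15 to 0.12 for Cald1, -0.17 to 0.12 for Vcl, -0.036 to 0.10 for Fhl2, -0.019 to 0.20 for Fhl3, -0.093 to 0.25 for Smtn, -0.061 to 0.039 for Srf and -0.10 to 0.14 for Flna. Cnn1, Actg2, Lmod1 and Myh11 had counts of 43 to 129, and their differences were not resolved by these libraries. The parts of depth and of spread between libraries were not tested.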

Other observations

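The ratio of a gene's estimated count to its TPM, set to the median gene of each library, is a relative measure of the transcript length over which its counts were scaled. It was nearly level for Tagln, Acta2, Cnn3, Srf and Zyx, whose libraries differed by at most 0.007 log2. The members with the widest range were Tpm2, 0.31 log2, and Synpo2, 0.30 log2, where the median of 11170 genes with at least 100 counts in every library was 0.063 and their 90th percentile 0.355. For Tpm2 the relative length was 1.01 and 0.88 in KO replicates 1 and 2, and 1.09 and 1.03 in wild-type replicates 1 and 2. For Synpo2 it was 1.00 and 0.90 in KO and 1.11 and 1.00 in wild type. In both, KO replicate 2 was the lowest library and wild-type replicate 1 the highest, as in the summed muscle-lineage markers. The part of transcript choice in these values was not tested.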
